A study of Rattus norvegicus with 2 samples.

Results

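Transcripts of 8 genes of cholesterol synthesis and uptake, Hmgcs1, Idi1, Fdft1, Sqle, Lss, Srebf2, Insig1 and Npc1l1, were read out in single epithelial cells of the rat jejunum. They were chosen by symbol, and each matched 1 row among the 32883 features of both libraries. The features are listed under the Ensembl identifiers ENSRNOG00000016552 (Hmgcs1), ENSRNOG00000016690 (Idi1), ENSRNOG00000021314 (Fdft1), ENSRNOG00000009550 (Sqle), ENSRNOG00000054549 (Lss), ENSRNOG00000007400 (Srebf2), ENSRNOG00000006859 (Insig1) and ENSRNOG00000049955 (Npc1l1). Epithelium of the proximal jejunum came from 2 adult male Sprague Dawley rats, an outbred strain, aged 6 to 8 weeks and fasted overnight, with no treatment and no other group. Each rat gave 1 droplet-based 3′ library, in which a unique molecular identifier (UMI) marks each captured transcript. The 2 libraries are the only replicates, and cells, classes and genes of 1 rat are not further replicates.

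Cholesterol is built from acetyl-CoA through mevalonate, isoprenoid units, squalene and lanosterol. The transcription factor encoded by Srebf2 is held in the endoplasmic reticulum by Insig proteins when sterols are plentiful, and when sterols are scarce it reaches the nucleus and activates genes of synthesis and of lipoprotein uptake. Enterocytes also take up cholesterol from the gut lumen, through the transporter Npc1l1 in the brush border. Hmgcs1 makes HMG-CoA, Idi1 interconverts the isoprenoid units, Fdft1 makes squalene, Sqle oxidises squalene and Lss closes its ring to lanosterol.

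The libraries held 20285 barcodes, of which 8338 had over 5000 UMIs and at most 40% mitochondrial UMIs (6035 of rat 1 and 2303 of rat 2). The limit of 5800 genes per cell that the study also used would leave 8218. Cells were clustered with the 8 genes and all related pathway genes kept out, and clusters were named from marker genes. Enterocyte-like cells, 4032 in rat 1 and 1137 in rat 2, were split within each rat into early, mid and mature classes of equal size by a villus score of 8 genes that are high at the villus tip, among them Ada, Nt5e and Apoa4. The cut is a place in a range, since 18.0% (rat 1) and 14.6% (rat 2) of these cells lay within 0.05 score units of a cut. The other classes were stem-like (569 and 15 cells in rat 1 and rat 2), cycling crypt-like (605 and 19), secretory progenitor-like (195 and 16), goblet/Paneth-like (128 and 31), goblet-like (48 and 106), EEC-like (hormone cells, 21 and 11), tuft-like (chemosensory cells, 16 and 125) and CHE-like cells (CFTR high expresser cells, 7 and 76). The stem-like cluster was named for Olfm4, but its leading genes also held DNA replication genes, among them Mcm2, Mcm3, Mcm4, Mcm6 and Pcna. It therefore holds cycling cells too. The rats also differed in ways that no label explains. The early class of rat 2 held more enterocyte marker transcripts (45492 against 21315 CPM, UMIs scaled to a common library total), more UMIs per cell (a median of 29518 against 11874) and more mitochondrial UMIs (a median of 23.5% against 13.7%) than that of rat 1, and their part in the differences between rats was not tested. Marker transcripts of each secretory class were highest in the class named for them among the 11 classes, but the tuft-like cells of rat 1 held 1200 CPM of tuft markers against 4005 in rat 2, and hemoglobin and other erythroid transcripts reached 17024 CPM in the tuft-like cells of rat 2. The tuft-like cells of rat 1 also held 1085 CPM of stem and 654 of cycling markers (93.2 and 161 in rat 2).

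UMIs were summed per rat and class, and levels are given as CPM after TMM scaling (normalised CPM), first for rat 1 and then for rat 2. Fold changes are on the log2 scale ± SE from the quasi-likelihood test of edgeR, with p-values adjusted over the 9442 genes tested by the Benjamini-Hochberg method (n = 2 rats in every class). The spread behind each p-value was pooled over all 22 sums of the same 2 rats. The fit without the block treats these sums as independent, so its p-values do not measure the spread between animals alone. All 8 genes passed the filter on low counts. Because both rats gave every class, the same test was also run with the rat as a block, and its value is given where it changed the call. The scaling moved the split of the calls. Of all genes called, 66.3% were higher in mature than in early enterocytes with TMM, 49.4% with DESeq2 and 13.2% without TMM. In enterocytes against crypt these shares were 47.7%, 40.3% and 21.7%, in secretory cells against enterocytes 28.4%, 55.7% and 53.6%, and in CHE-like against other secretory cells 85.4%, 74.3% and 84.7%.

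To show what the genes share upstream of their start, the RefSeq window from 250 bases before to 50 bases after the annotated start was searched for 4 motifs on both strands. The window was found for 6 of the 8 genes. CCAAT, the box bound by NF-Y, was present in 6 of 6, against 37.5% of 33469 windows of 300 bases. TCACNCC, the core of a sterol regulatory element, was present in Srebf2 (14.6% of all windows), its longer form TCACNCCAC in none of the 6 (1.12% of all windows), and the E-box CACGTG in Insig1 (6.42% of all windows). TCACNCC lies within TCACNCCAC. A match is a description of the letters and no evidence of binding. The 250 bases before the start are given for Idi1 and Npc1l1, which differed in opposite directions along the villus, for Srebf2 as the single holder of TCACNCC, and for Insig1, whose pattern stood apart. Capitals mark the motifs on either strand, so that ATTGG is CCAAT on the other strand.
Idi1 (chr17:66547525-66547774, GRCr8, minus strand): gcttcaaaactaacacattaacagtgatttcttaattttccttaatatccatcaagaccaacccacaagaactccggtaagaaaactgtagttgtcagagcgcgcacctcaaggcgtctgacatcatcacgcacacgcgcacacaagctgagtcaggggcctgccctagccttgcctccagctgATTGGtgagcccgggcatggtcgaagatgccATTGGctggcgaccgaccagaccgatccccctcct
Npc1l1 (chr14:85305051-85305300, GRCr8, minus strand): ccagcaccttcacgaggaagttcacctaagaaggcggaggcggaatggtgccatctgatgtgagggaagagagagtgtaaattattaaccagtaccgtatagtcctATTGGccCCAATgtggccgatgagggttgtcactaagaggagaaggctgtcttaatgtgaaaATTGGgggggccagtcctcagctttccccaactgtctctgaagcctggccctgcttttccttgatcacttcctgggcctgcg
Srebf2 (chr7:115543057-115543306, GRCr8, plus strand): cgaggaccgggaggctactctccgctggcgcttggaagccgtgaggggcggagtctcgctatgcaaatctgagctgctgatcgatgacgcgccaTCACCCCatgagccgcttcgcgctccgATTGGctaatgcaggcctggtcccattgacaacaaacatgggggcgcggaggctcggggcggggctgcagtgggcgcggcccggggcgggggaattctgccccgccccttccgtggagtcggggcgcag
Insig1 (chr4:8057770-8058019, GRCr8, minus strand): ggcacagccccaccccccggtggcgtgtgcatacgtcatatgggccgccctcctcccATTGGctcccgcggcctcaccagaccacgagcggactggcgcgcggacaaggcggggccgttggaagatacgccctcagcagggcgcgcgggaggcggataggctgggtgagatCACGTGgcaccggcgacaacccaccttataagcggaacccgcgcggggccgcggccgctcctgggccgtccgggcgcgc
In Idi1 the CCAAT matches begin 66 and 35 bases before the start. Npc1l1 holds 3 matches, the nearest 82 bases before the start. In Srebf2 the TCACNCC match begins 156 bases before the start and the CCAAT match 129 bases before it. Hmgcs1, with 2 CCAAT matches, and Lss, with 1, hold no other motif of the 4.

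The first comparison asked how the genes vary as enterocytes mature. Most synthesis genes were low in mature cells and Npc1l1 and Insig1 were high there, but none of the 8 passed the test without the block (adjusted p between 0.0538 and 0.878), where 2.89% of all genes passed. An unadjusted p below 0.05 was found for 5 of the 8, against 25.2% of all genes. With the rat as a block, 5 of the 8 passed (Idi1, Sqle and Lss lower, Insig1 and Npc1l1 higher in mature cells), against 25.8% of all genes. DESeq2 called 4 of the 8, against 9.48% of all genes.

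Idi1 had 94.3 and 33.8 normalised CPM in early cells and 10.5 and 5.0 in mature cells. The early and mature values of the rats did not overlap. Its log2 fold change was -3.02 ± 0.81 (edgeR adjusted p = 0.0538, and 0.00654 with the rat as a block), with -3.12 in rat 1 and -2.66 in rat 2. Sqle, which encodes the first oxygen-requiring enzyme of the sterol branch, showed the same order. Its level was 56.0 and 22.2 in early cells and 8.9 and 6.3 in mature cells. The log2 fold change was -2.35 ± 0.74 (edgeR adjusted p = 0.0728, and 0.0161 with the block). Lss was sparse, with 223 and 82 UMIs in early cells and 27 and 11 in mature cells. Its level went from 11.5 and 8.8 to 2.5 and 3.6 normalised CPM, a log2 fold change of -1.74 ± 0.61 (edgeR adjusted p = 0.0946, and 0.0165 with the block).

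Srebf2 had 61.7 and 44.6 normalised CPM in early cells and 27.8 and 20.6 in mature cells. Those ranges did not overlap, and the rats gave log2 differences of -1.14 and -1.10, but the change of -1.13 ± 0.57 did not pass the test (edgeR adjusted p = 0.225, and 0.103 with the block). After TMM scaling, Hmgcs1 and Fdft1 went opposite ways in the rats. Hmgcs1 had 120.7 normalised CPM in early and 53.9 in mature cells of rat 1, but 77.9 and 180.7 in rat 2. Fdft1 had 69.1 and 17.6 in rat 1, but 22.2 and 35.2 in rat 2. On plain CPM, Fdft1 of rat 2 was 18.3 in early and 16.6 in mature cells, so its direction in that rat turned with the scaling. The fitted direction of Hmgcs1 turned as well (log2 fold change 0.23 with TMM and -0.63 without). Its rats still went opposite ways on plain CPM. Rat 1 had 120.9 in early and 34.4 in mature cells, and rat 2 had 64.2 and 85.5. Neither gene passed (edgeR adjusted p = 0.878 and 0.520), and the difference between rats was not tested.

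Npc1l1 had 143.9 and 482.1 normalised CPM in early cells and 650.5 and 1884.4 in mature cells, so every mature value exceeded every early one. Its log2 fold change was 2.02 ± 0.66 (edgeR adjusted p = 0.0808, and 0.00186 with the block), with 2.17 in rat 1 and 1.97 in rat 2. Insig1, whose protein holds back the sterol sensor complex, had 23.7 and 23.2 in early cells and 42.4 and 454.7 in mature cells. The mature values were both above the early ones, but far apart from each other. On plain CPM rat 1 had 23.8 (95% Poisson interval 21.7 to 26.0) in early and 27.0 (24.6 to 29.7) in mature cells, which overlap, and rat 2 had 19.1 and 215.0. Its log2 fold change was 3.40 ± 0.98 (edgeR adjusted p = 0.0607, and 0.00547 with the block), and it was 0.82 in rat 1 and 4.27 in rat 2.

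When the lipid genes were taken out of the villus score, which left Ada, Nt5e, Slc28a2 and Enpep, no gene of the whole table passed in this comparison. The log2 fold changes were then -1.23 for Idi1, -0.90 for Sqle and 3.57 for Insig1 (edgeR adjusted p between 0.328 and 0.824 for these genes, and 0.813 for Npc1l1). The score with all 8 genes itself holds lipid genes, the apolipoproteins Apoa1, Apoa4 and Apoc3 and Creb3l3, a transcription factor of lipid metabolism.

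**Figure D1:**
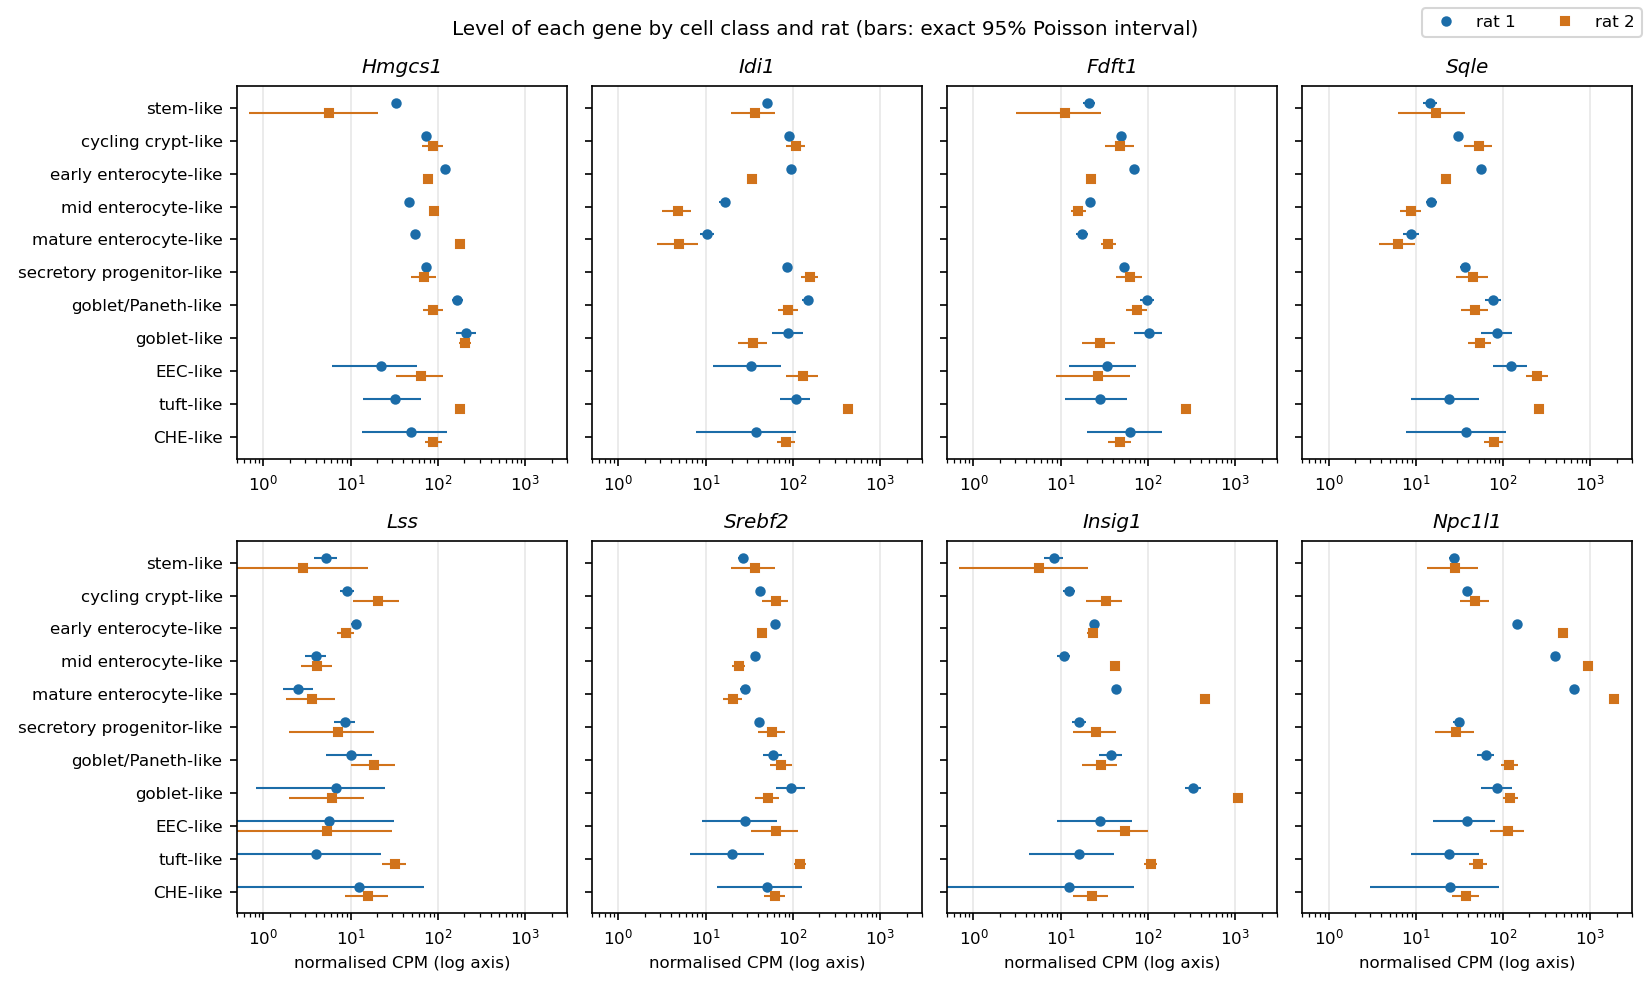
Normalised CPM (log axis) of each gene in 11 cell classes, with a circle for rat 1, a square for rat 2 and bars for exact 95% Poisson intervals, which cover counting error only. Npc1l1 is highest in the 3 enterocyte classes of each rat, Insig1 in goblet-like cells, Sqle lies lowest in mature enterocytes, and Idi1 in mid and mature enterocytes.

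Finer steps of the villus score placed most synthesis genes early and the uptake gene late. Enterocyte-like cells were cut into 10 equal parts by the score within each rat, and the levels below are descriptions without a test. In rat 1, all 5 synthesis enzymes and Srebf2 were highest in decile 2, with 88.9 normalised CPM for Idi1, 54.7 for Sqle, 68.3 for Fdft1, 117.4 for Hmgcs1, 10.1 for Lss and 53.1 for Srebf2. They were lower in decile 1, where Idi1 stood at 67.6 and Sqle at 27.6. In rat 2, Idi1 (39.0), Sqle (23.4), Lss (9.7) and Srebf2 (39.9) were highest in decile 1, but Hmgcs1 and Fdft1 were highest in decile 10, at 141.7 and 32.1. Which decile was highest turned with the scaling. On plain CPM both genes of rat 2 were highest in decile 1. Hmgcs1 had 93.9 there against 82.8 in decile 10, and Fdft1 had 24.1 against 18.8. Between these ends, Hmgcs1 of rat 2 still went up on plain CPM, from 47.1 in decile 3 to 87.7 in decile 8.

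From there Idi1 went down to 2.5 in decile 9 of rat 1 (12 UMIs), 35.3-fold below the highest decile, and to 0.80 in decile 6 of rat 2. Sqle went down 10.8-fold to 5.0 in decile 9 in rat 1 (24 UMIs) and to 1.9 in decile 10 in rat 2. Both lowest values of rat 2 rest on 2 UMIs, under the floor of 3 counts, so no fold is given for them. Srebf2 varied less, 2.89-fold and 2.99-fold between its highest and lowest decile. Fdps, which makes farnesyl diphosphate, also had its highest decile at 2 in rat 1 and at 1 in rat 2.

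Npc1l1 was higher in each decile than in the one before, in 9 of 9 steps in both rats, from 56.9 to 623.8 normalised CPM in rat 1 and from 238.5 to 1569.1 in rat 2. On plain CPM this held in 8 of 9 steps in rat 1 and 9 of 9 in rat 2. The score was cut within each rat, and every decile of rat 2 lay above the same decile of rat 1. Insig1 behaved in a different way. It stayed between 5.5 and 20.6 in deciles 1 to 9 of rat 1 and reached 84.4 in decile 10. In rat 2 it lay between 13.6 and 51.0 in deciles 1 to 7, then was 162.1, 309.7 and 661.3 in deciles 8, 9 and 10. Decile 10 was the highest for Insig1 in both rats. Hmgcs1 was lowest in decile 5 of rat 1 (24.4) and decile 3 of rat 2 (43.9), and stood at 33.3 and 141.7 in decile 10.

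**Figure D2:**
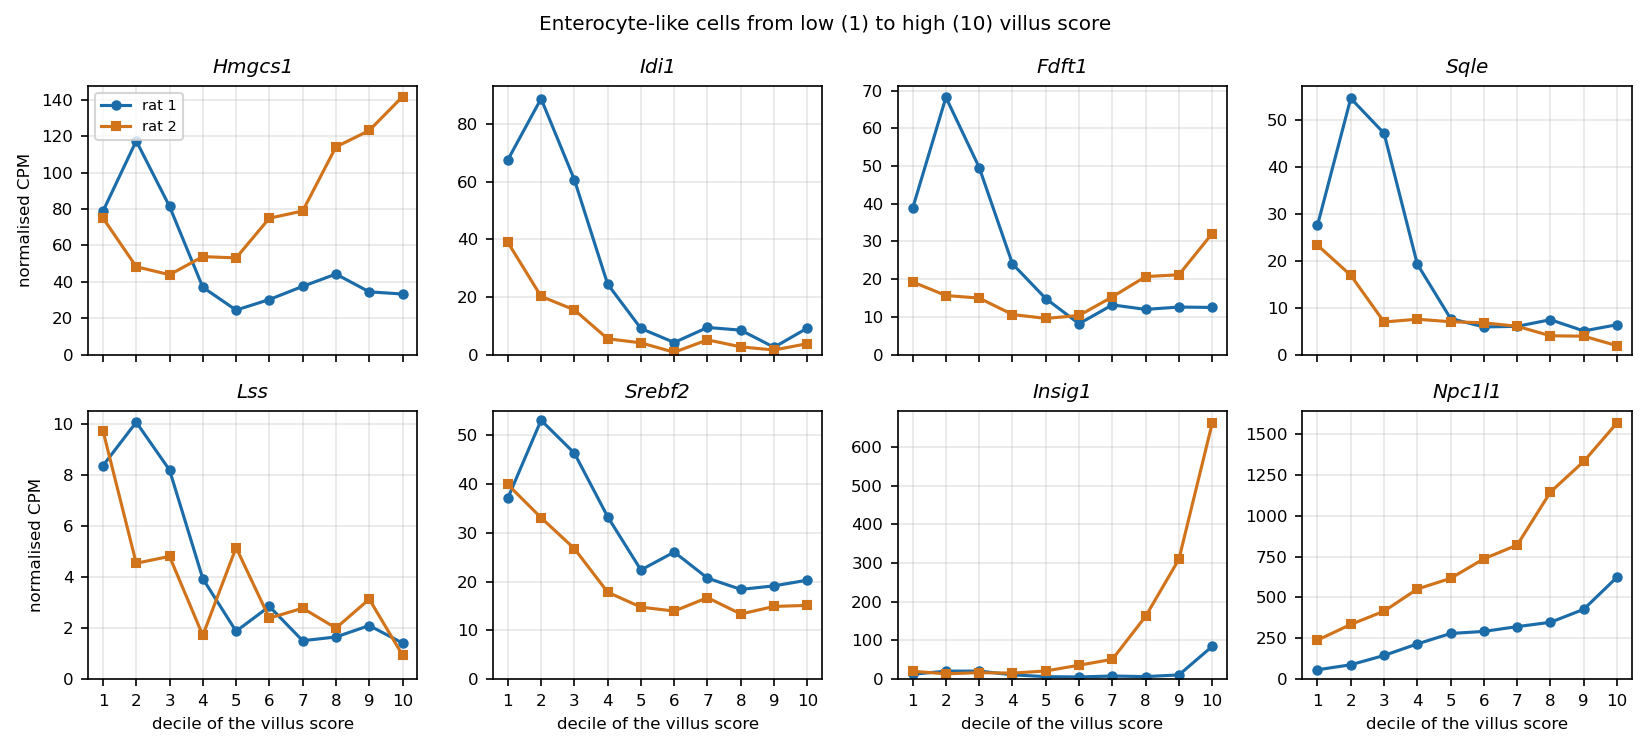
Normalised CPM of each gene (linear axis from 0, own scale per gene) over deciles of the villus score in enterocyte-like cells, rat 1 as circles and rat 2 as squares. The synthesis genes and Srebf2 are highest in decile 1 or 2, other than Hmgcs1 and Fdft1 of rat 2 (on plain CPM these too are highest in decile 1), Npc1l1 is higher at every step (on plain CPM at 8 of 9 in rat 1), and Insig1 is highest in decile 10 of both rats.

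The second comparison set enterocytes (the mean of the early, mid and mature classes) against the crypt (the mean of the stem-like and cycling crypt-like classes). Of the 8 genes, 3 passed the test, against 55.5% of all genes. Npc1l1 was higher in enterocytes by a log2 fold change of 4.21 ± 0.51 (edgeR adjusted p = 7.48e-06), with 3.34 in rat 1 and 4.67 in rat 2. In the crypt it had 27.4 and 28.2 normalised CPM in stem-like cells and 38.7 and 48.0 in cycling cells. On plain CPM, Npc1l1 had 31.1 and 40.6 in stem-like and 46.9 and 76.6 in cycling cells. Erythroid-like cells, which should not use the gene, had 9.36 (95% Poisson interval 1.13 to 33.8, from 2 UMIs) and 16.8 (11.9 to 22.9). The stem-like intervals (27.2 to 35.3 and 19.5 to 74.7) overlapped these in both rats. The erythroid-like cells of rat 1 also held 103820 CPM of Paneth marker transcripts (4.73 in rat 2), so they are no clean measure of background. Leukocyte-like cells had 67.6 and 54.9 (43.9 to 67.8), and those of rat 1 also held 6873 CPM of epithelial transcripts (682 in rat 2), so they are no measure of background there.

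Insig1 was higher in enterocytes by 2.08 ± 0.68 (edgeR adjusted p = 0.0151), with 8.3 and 5.6 normalised CPM in stem-like and 12.6 and 32.6 in cycling cells. Enterocytes had 23.7 and 23.2 in the early, 10.85 and 42.3 in the mid and 42.4 and 454.7 in the mature class. Early cells of rat 2 and mid cells of rat 1 were thus below the cycling cells of the same rat. Idi1 was lower in enterocytes by a log2 fold change of -1.90 ± 0.49 (edgeR adjusted p = 0.00342). It had 49.7 and 36.7 in stem-like and 89.2 and 108.1 in cycling crypt-like cells, against 16.5 and 4.8 in mid and 10.5 and 5.0 in mature enterocytes. Early enterocytes (94.3 and 33.8) were below both crypt classes in rat 2. In rat 1 they were above stem-like cells, but their place against cycling cells turned with the scaling (on plain CPM 94.5 against 108.1). Without the stem-like class the Insig1 call was lost (log2 fold change 1.34, edgeR adjusted p = 0.231), and without the lipid genes in the score that of Idi1 was lost (-1.14, edgeR adjusted p = 0.0632).

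Hmgcs1, Sqle, Fdft1, Lss and Srebf2 did not pass (edgeR adjusted p between 0.0648 and 0.945). Within the crypt, cycling cells had more than stem-like cells of each of these genes in both rats. The stem-like class is not free of cycling cells. It held 653 and 959 CPM of cycling marker transcripts, against 1272 and 1001 in cycling crypt-like cells. Sqle had 30.7 and 53.2 normalised CPM in cycling against 14.6 and 16.9 in stem-like cells, and Fdft1 had 48.6 and 48.0 against 21.2 and 11.3. The 19 cycling cells of rat 2 also held 1392 CPM of leukocyte, 487 of tuft and 495 of EEC marker transcripts (261, 3.85 and 61.0 in rat 1), and 31.6% of them had a Ptprc UMI (2.81% in rat 1). The leukocyte-like cells of rat 2 had 126 CPM of Srebf2 and 106 of Hmgcs1, and the part of other cell types in these levels was not tested. The stem-like class of rat 2 rested on 15 cells and on 1 to 13 UMIs of each of the 8 genes, so its levels are imprecise.

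The third comparison set secretory cells (the mean of the goblet-like, EEC-like, tuft-like and CHE-like classes) against enterocytes. Sqle and Idi1 were higher and Npc1l1 lower in secretory cells, 3 of the 8 genes against 30.6% of all genes. With the rat as a block, Fdft1 and Srebf2 also passed, which makes 5 of 8 against 37.7% of all genes.

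Sqle was higher in secretory cells by 2.78 ± 0.43 (edgeR adjusted p = 8.48e-05), with 1.48 in rat 1 and 3.53 in rat 2. EEC-like cells had 122.6 (95% Poisson interval 76.9 to 185.7) and 247.4 (181.1 to 330.0) normalised CPM of Sqle. These rest on 22 and 46 UMIs. At 5000 UMIs per cell, Sqle was seen in 9 of 21 EEC-like cells of rat 1 and 11 of 11 of rat 2, against 0.315% of the erythroid-like cells of rat 2 (median depths before thinning of 7931 and 12853 UMIs in EEC-like and 7098 in erythroid-like cells). Goblet-like cells had 85.2 and 54.7, CHE-like cells 37.3 and 78.5, and tuft-like cells 24.1 and 257.4 of Sqle. Early enterocytes alone (56.0 and 22.2) stood above the CHE-like and tuft-like cells of rat 1 (3 and 6 UMIs). In rat 2 they stood below every secretory class.

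Idi1 was higher in secretory cells by 2.47 ± 0.45 (edgeR adjusted p = 4.40e-04). Among the 4 secretory classes, tuft-like cells held its highest level, 108.4 normalised CPM in rat 1 and 431.5 in rat 2, while the goblet/Paneth-like class, which is outside this comparison, had 146.7 in rat 1 (on plain CPM 153.8 against 163.6 in tuft-like cells). The tuft-like value of rat 1 rests on 27 UMIs. Its 95% Poisson interval (71.4 to 157.7) overlapped that of goblet-like cells (57.9 to 129.9), and these tuft-like cells also held stem and cycling markers. At 5000 UMIs per cell Idi1 was seen in 8 of 16 and 105 of 125 tuft-like cells, against 0.946% of the erythroid-like cells of rat 2. Idi1 had 33.4 and 129.1 in EEC-like, 88.6 and 35.3 in goblet-like and 37.3 and 84.1 in CHE-like cells. Early enterocytes alone (94.3 and 33.8) stood above these classes in rat 1 and below them in rat 2. Fdft1 was 269.5 in the tuft-like cells of rat 2 and 28.1 in those of rat 1. Its log2 fold change over the secretory classes was 1.15 ± 0.44 (edgeR adjusted p = 0.0566, and 0.0363 with the block).

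In the tuft-like cells of rat 2, Fdft1, Idi1, Sqle, Srebf2 and Lss were all at their highest level among the 11 classes of that rat, whereas the 16 tuft-like cells of rat 1 held 1 to 27 UMIs of each. Without the tuft-like class the test of secretory cells called 4 of the 8 genes, against 25.8% of all genes, and the log2 fold changes of Sqle and Idi1 were 2.86 and 2.22. Srebf2 was higher in secretory cells by 0.87 ± 0.33 (edgeR adjusted p = 0.0549, and 0.0383 with the block). It had 20.1 and 121.1 in tuft-like and 95.4 and 51.1 in goblet-like cells. Lss did not pass (1.05 ± 0.43, edgeR adjusted p = 0.0781).

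Npc1l1 was lower in secretory cells by a log2 fold change of -3.48 ± 0.38 (edgeR adjusted p = 2.90e-06), with -3.12 in rat 1 and -3.70 in rat 2. It ranged from 24.1 in tuft-like cells of rat 1 to 121.6 in goblet-like cells of rat 2. On plain CPM the 4 secretory classes had 29.6 to 64.7 in rat 1 and 32.6 to 134.7 in rat 2, all above the erythroid-like cells of the same rat (9.36 and 16.8). Those erythroid-like cells are no clean background in rat 1, where they held Paneth marker transcripts. The 95% Poisson intervals lay apart from the erythroid-like one for goblet-like cells of rat 1 (41.8 to 95.4) and for EEC-like (83.4 to 205.9), goblet-like (57.9 to 86.5) and tuft-like cells (52.1 to 84.8) of rat 2, but not for the other secretory classes. The leukocyte-like cells of rat 2 (54.9, 43.9 to 67.8) stood above its CHE-like cells, and their interval overlapped those of its goblet-like and tuft-like cells, so only the EEC-like level of rat 2 lay above both.

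Insig1 and Hmgcs1 did not pass in secretory cells against enterocytes (log2 fold change 0.57 ± 0.53 and 0.01 ± 0.41, edgeR adjusted p = 0.487 and 1.00), and their secretory classes were far apart. Goblet-like cells had the highest Insig1 of all classes in both rats, 327.3 and 1084.4 normalised CPM from 96 and 892 UMIs. At 5000 UMIs per cell, an Insig1 UMI was seen in 45.8% and 87.7% of goblet-like cells, against 9.5% and 51.2% of mature enterocytes and 1.6% of the erythroid-like cells of rat 2, whose median depth was 7098 UMIs against 13319 in goblet-like cells before thinning. In the goblet/Paneth-like class, which also expresses defensins, Insig1 was 37.7 and 28.8. After TMM scaling Hmgcs1 was likewise highest in goblet-like cells, at 211.4 and 205.5. On plain CPM it was higher in goblet/Paneth-like cells of rat 1 (174.9 against 160.3) and in tuft-like cells of rat 2 (227.2 against 120.2). With the 11 classes ordered by the mean of both rats, each rat had the same order in 7 of 10 neighbouring pairs for Npc1l1, 5 of 10 for Lss, 4 of 10 for Hmgcs1, Sqle, Insig1 and Srebf2, 2 of 10 for Idi1 and 1 of 10 for Fdft1, and in the other pairs the rats did not share the order. The ranges over the rats, without pairing, overlapped in 5 of 10 pairs for Lss and in 8 to 10 of 10 for the other genes.

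**Figure D3:**
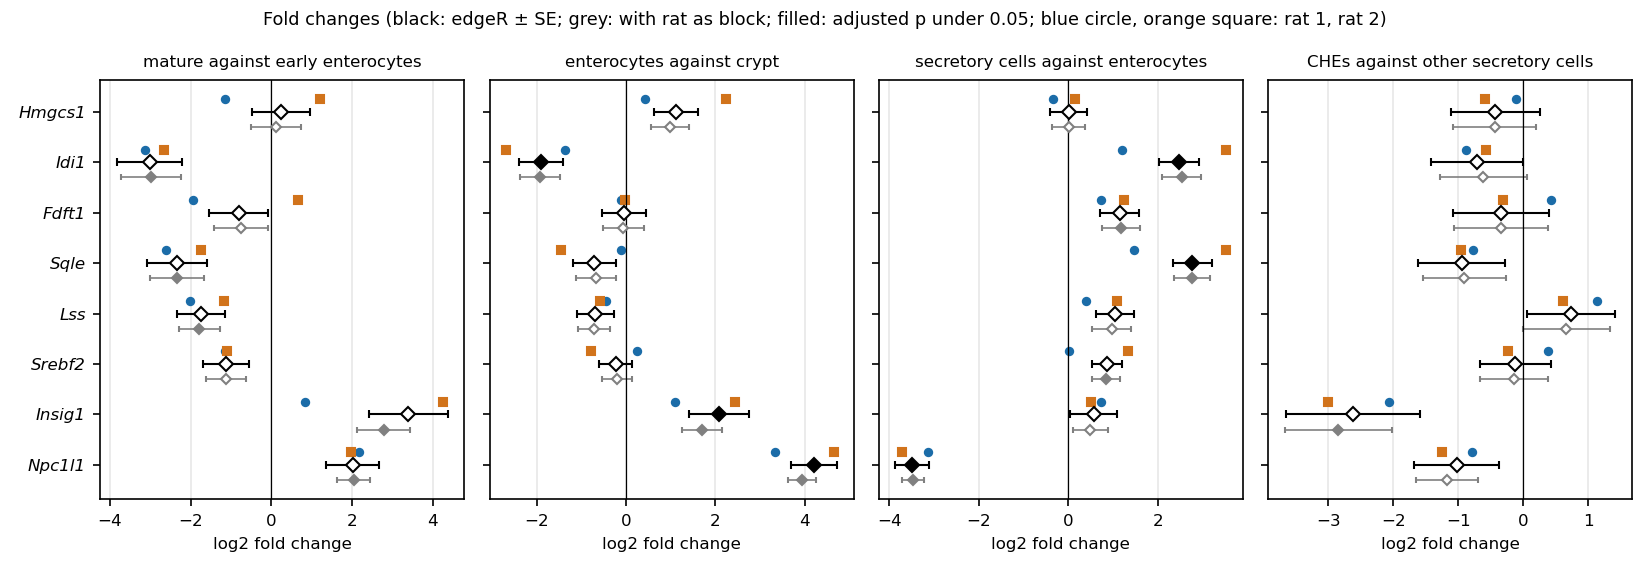
Log2 fold change of each gene in the 4 comparisons, with black diamonds for edgeR's estimate ± SE, grey diamonds for the fit with the rat as a block, filled where the adjusted p is under 0.05, and circles and squares for rat 1 and rat 2. Npc1l1 lies at 4.21 in enterocytes against crypt and at -3.48 in secretory cells against enterocytes, while Hmgcs1 and Fdft1 have the rats on opposite sides of 0 in mature against early enterocytes (for Fdft1 not on plain CPM, where both rats are lower).

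The fourth comparison set CHE-like cells, the cell type the study was about, against goblet-like, EEC-like and tuft-like cells. None of the 8 genes passed edgeR's test, against 4.51% of all genes, and 1 had an unadjusted p below 0.05, against 16.6% of all genes. With the rat as a block 1 of the 8 passed, against 7.88% of all genes. That gene was Insig1, which was lower in CHE-like cells (log2 fold change -2.62 ± 1.02, edgeR adjusted p = 0.189, and 0.0397 with the block). It had 12.4 and 22.7 normalised CPM in CHE-like cells against 327.3 and 1084.4 in goblet-like, 27.9 and 53.8 in EEC-like and 16.1 and 106.7 in tuft-like cells. DESeq2 called none of the 8 and 4.46% of all genes.

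CHE-like cells of rat 2 (76 cells) had 88.7 normalised CPM of Hmgcs1, 84.1 of Idi1, 47.8 of Fdft1, 78.5 of Sqle, 15.9 of Lss and 62.5 of Srebf2. Those of rat 1 rested on 7 cells and 1 to 5 UMIs of each gene, so its levels are imprecise at this depth. The log2 fold changes of these genes lay between -0.95 ± 0.67 for Sqle and 0.74 ± 0.68 for Lss.

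The other genes of cholesterol synthesis were read in the same fits, from a list of 16 enzymes of which 14 passed the filter. In mature against early enterocytes 2 passed (2.89% of all genes did), both lower, Cyp51 (lanosterol demethylase, -2.67 ± 0.64, edgeR adjusted p = 0.0382) and Dhcr7 (the last reductase, -2.38 ± 0.57, edgeR adjusted p = 0.0382). With the rat as a block 6 of 14 passed (25.8% of all genes), all lower, and Acat2, Fdps and Mvd were among those added. The median over the list was -1.41, over the 8 genes -0.97 and over all genes -0.06 (-0.08 with DESeq2 and -0.75 without TMM). In secretory cells against enterocytes 9 of 14 passed (30.6% of all genes), 7 higher and 2 lower. Fdps was higher by 1.46 ± 0.38. Tm7sf2 and Sc5d, sterol reductase and desaturase, were lower (-1.60 and -0.73), but the call of Sc5d was lost without TMM and with DESeq2 (edgeR adjusted p = 0.527 and DESeq2 adjusted p = 0.207). The rats went opposite ways for 2 of the 9, Mvd and Pmvk. In enterocytes against crypt 2 of 14 passed (55.5% of all genes), and both were higher in enterocytes, Sc5d (2.20 ± 0.33) and Tm7sf2 (1.74 ± 0.35, lost without TMM at 0.83, edgeR adjusted p = 0.0598). With the block 4 of 14 passed (64.0% of all genes), with Hsd17b7 and Mvd added as lower in enterocytes (edgeR adjusted p = 0.0425 and 0.0191). The median without the block was 0.54 in secretory cells against enterocytes, where that of all genes was -0.23 (0.21 with DESeq2 and 0.23 without TMM). It was -0.21 in enterocytes against crypt, where that of all genes was -0.05 (-0.33 with DESeq2 and -0.91 without TMM).

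Of 10 tested genes of sterol regulation and lipoprotein uptake, 1 passed in mature against early enterocytes (2.89% of all genes), Mylip, a ubiquitin ligase induced by the sterol receptors of the LXR family (3.78 ± 0.84, edgeR adjusted p = 0.0303). With the block 3 passed, all higher, with Srebf1 and Insig2 added, a share near the 25.8% of all genes. In enterocytes against crypt 5 of 10 passed (55.5% of all genes), all higher in enterocytes: Insig2 (2.63), Nr1h3 (2.07), Mylip (1.86), Srebf1 (1.32) and Nr1h2 (0.99). Without TMM the calls of Mylip (1.04), Srebf1 (0.38) and Nr1h2 (0.038) were lost (edgeR adjusted p between 0.104 and 0.950), and with DESeq2 that of Nr1h2 (DESeq2 adjusted p = 0.103). Nr1h3 and Nr1h2 encode the sterol receptors LXRα and LXRβ. In secretory cells against enterocytes 5 of 10 passed, 1 higher and 4 lower, and those lower were Nr1h3, Srebf1, Stard4 and Insig2 (30.6% of all genes passed). The call of Insig2 was lost without TMM and with DESeq2 (edgeR adjusted p = 0.110 and DESeq2 adjusted p = 0.0600). With the block 6 of 10 passed (37.7% of all genes), with Nr1h2 added as lower (edgeR adjusted p = 0.0286).

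Relatives of the 8 genes were read beside them. Insig2 had 10.7 and 30.0 normalised CPM in early and 39.5 and 104.8 in mature enterocytes, and 0 and 43.8 in goblet-like cells, where Insig1 was highest. Srebf1 was lower in secretory cells than in enterocytes (-2.17 ± 0.39). Npc1, a lysosomal cholesterol exporter, had 18.3 and 183.7 in mature enterocytes of rat 1 and rat 2.

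Genes of cholesterol transport and storage were read beside Npc1l1. Of 10 tested, 6 passed in enterocytes against crypt, a share near the 55.5% of all genes, and all were higher in enterocytes: Abcg8 (4.99 ± 0.55) and Abcg5 (4.22 ± 0.57), which pump sterols back to the lumen, Scarb1 (3.99 ± 0.67), Gramd1b (3.85 ± 0.47), Lipa (3.27 ± 0.58) and Soat2 (2.79 ± 0.46), which esterifies cholesterol. In secretory cells against enterocytes 5 of 10 passed (30.6% of all genes) and all were lower, from -3.16 for Lipa to -7.25 for Abcg8. In mature against early enterocytes only Lipa passed (3.51 ± 0.81, edgeR adjusted p = 0.0346, where 2.89% of all genes passed), and with the block Gramd1b and Npc1 did too, 3 of 10 against 25.8% of all genes.

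Fatty acid synthesis genes, which SREBPs also activate, were tested as a contrast, 6 of 8 passing the filter. In enterocytes against crypt 5 of 6 passed (55.5% of all genes), of which 4 were lower, Fasn (-3.65), Scd2 (-2.92), Acss2 (-2.47) and Acly (-1.84), and Me1 was higher (4.36). In mature against early enterocytes 1 was lower, Fasn (-3.70 ± 0.79, edgeR adjusted p = 0.0295, where 2.89% of all genes passed), and with the block 3 were lower, with Acss2 and Acly added (25.8% of all genes). In secretory cells 3 of 6 passed (30.6% of all genes), where Acly (2.46) and Fasn (2.11) were higher and Me1 (-4.04) was lower. In CHE-like against other secretory cells no gene of the 4 lists passed edgeR's test (4.51% of all genes did), while 1, 0, 3 and 1 genes of the synthesis, regulation, transport and fatty acid lists had an unadjusted p below 0.05 (16.6% of all genes). With the block 1 passed (7.88% of all genes), Me1, which was higher in CHE-like cells (log2 fold change 2.20 ± 0.65, edgeR adjusted p = 0.0648, and 0.0351 with the block).

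**Figure D4:**
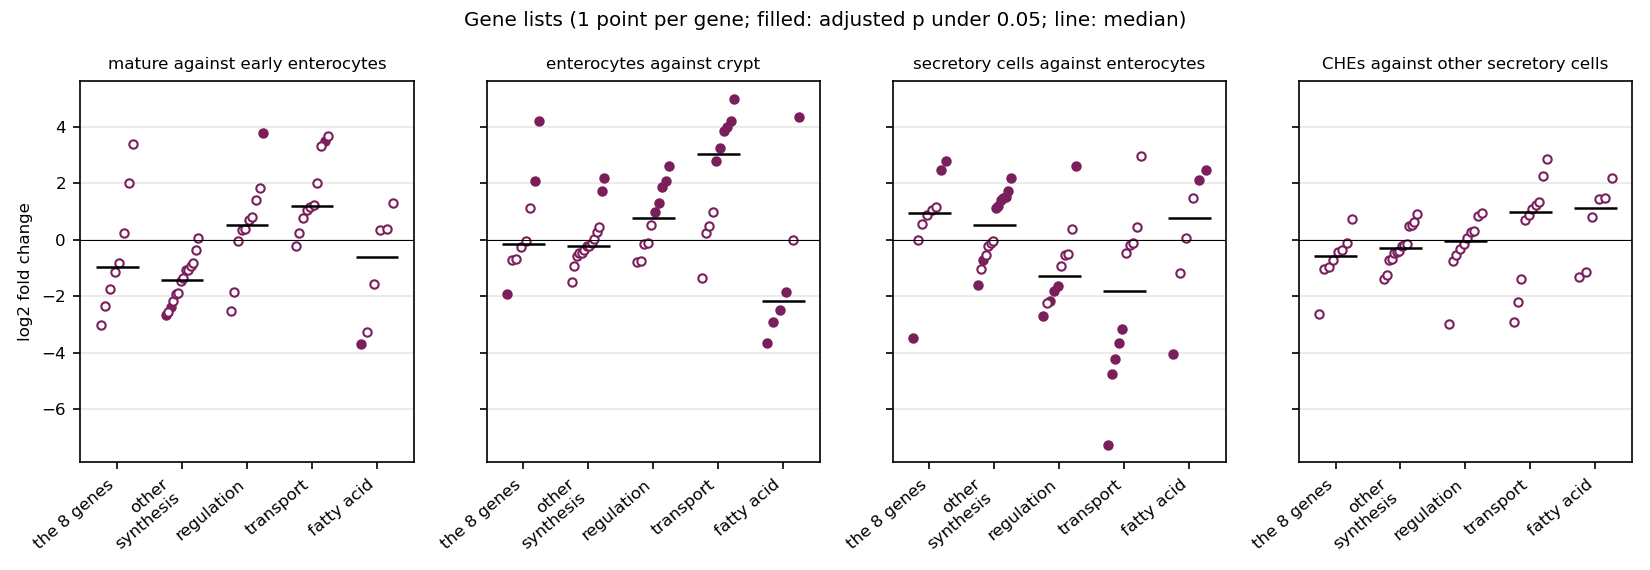
Log2 fold change of every tested gene of 5 lists in the 4 comparisons, 1 point per gene, filled where edgeR's adjusted p is under 0.05, with a line at the list's median. The other synthesis genes have a median of -1.41 in mature against early enterocytes and 0.54 in secretory cells against enterocytes, and the transport genes have 3.03 in enterocytes against crypt.

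The mean centred level of the 8 genes over the 22 sums was compared with that of every gene, as a description in which the sums share rats and classes. Msmo1, of the synthesis list, was the most alike (Pearson r = 0.93), and Fdps of the same list had 0.82. Other genes of that list were far less alike, among them Acat2 (0.13), Ebp (0.10), Tm7sf2 (-0.03), Dhcr7 (-0.09) and Hsd17b7 (-0.26). Outside all lists the 8 most alike were Crlf2 (0.76), Tmem254, Jund, Ppp1r3b, Rala, Acbd3, Rbm5 and Golgb1 (0.71). Among the 8 genes themselves, Sqle and Idi1 (0.79), Fdft1 and Lss (0.79) and Sqle and Srebf2 (0.76) were alike over the sums, Hmgcs1 was most like Insig1 (0.72), and Npc1l1 was opposite to Idi1 (-0.72).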

How the data were processed

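Per the labels, the authors made libraries with the 10x 3′ chemistry and processed them with Cell Ranger against rn6. Per the file headers, the version was 3.1.0 in rat 1 but 5.0.1 in rat 2, which cannot be told apart from the rat. The deposited values are raw UMI counts per gene and barcode, with no normalization. The files held 99986348 UMIs for rat 1 and 66469907 for rat 2, and 28 barcodes occurred in both. The genes and lists were chosen with earlier results of these data known.

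Cells with over 5000 UMIs and at most 40% mitochondrial UMIs were clustered after anchor integration (Seurat 5.3.0, R 4.3.3, 2000 variable genes, 20 principal components, resolution 0.3 for all cells and 0.5 after). Thresholds for naming clusters were set after the clusters were seen. Because the classes were rebuilt here, they can differ from the study's own. Leukocyte-like, erythroid-like and unnamed clusters entered no comparison, and neither did 2 and 95 crypt cells with 10 or fewer UMIs over 5 epithelial genes. Scrublet in scanpy 1.11.5 called 119 doublets in rat 1 and 2 (0.0868%) in rat 2, where it has not worked. Doublets were kept, and their removal was an alternative. The villus score used cells thinned to 5000 UMIs.

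Counts were summed per rat and class (22 sums of 67531 to 19434874 UMIs) and tested in 1 fit with edgeR 4.0.16 (TMM scaling, filterByExpr, quasi-likelihood test, adjusted p under 0.05). DESeq2 1.42.0 was an alternative. On simulated data in which 200 genes differed by 2 (log2), edgeR recovered 39 in mature against early enterocytes (8503 genes), 152 in enterocytes against crypt (8536), 153 in secretory cells against enterocytes (8510) and 27 in CHEs against other secretory cells (8492). False calls were 2, 2, 9 and 1 in that order. The simulation gave all sums the same mean profile and dispersion and no difference between rats, so it does not measure power in these data. Sums of the 2 rats pair by animal: rat differences correlated between classes with a median r of 0.214 (0.0718 to 0.757, 55 pairs). Poisson and Clopper-Pearson intervals at 95% cover counting error only. Named genes were the 8 genes, the called list genes with the largest fold changes in 1 direction in both rats (at most 6 per list), relatives and markers, and the 8 genes outside the lists with the highest correlation. Single values of some list genes are not reported here, but these genes stayed in the counts and medians. Promoter sequences are RefSeq's for GRCr8, another build than that of the counts.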

Additional observations from a re-analysis of the deposited data

How the results depend on the processing

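Over 13 other ways of processing and 3 more chosen after seeing the data (library sizes without TMM, and the tuft-like or the stem-like class left out), the calls of Npc1l1 in enterocytes against crypt and of Npc1l1, Sqle and Idi1 in secretory cells against enterocytes held in 16 of 16 settings, Insig1 and Idi1 in enterocytes against crypt in 14 and 15 of 16. In mature against early enterocytes, where 273 genes and none of the 8 were called, the count of genes was 134 with fewer than 5800 genes per cell, 792 with at most 20% mitochondrial UMIs, 47 with no minimum of epithelial UMIs, 799 merged without integration, 0 without lipid genes in the score, 957 with one cut over both rats, 895 with DESeq2, 1480 with no filter on low counts, 2433 with the replicate block, 1256 without TMM, 581 without tuft-like and 124 without stem-like cells. Of the 8 genes, 1 was called with the score not thinned (4.23% of all genes), 3 each with at most 20% mitochondrial UMIs, merged, without TMM and without tuft-like cells (6.05% to 13.3%), 4 each with one cut, DESeq2 and no filter (8.53% to 10.1%), and 5 with the block (25.8%). In secretory cells against enterocytes 5 of the 8 were called with at most 20% mitochondrial UMIs, merged, with one cut and with the block (28.2% to 37.7% of all genes), and 6 with DESeq2 (38.3%) and without TMM (29.6%). In enterocytes against crypt 5 were called without TMM (60.0%) and without tuft-like cells (57.3%). In CHEs against other secretory cells 690 genes (3.98%) and 1 of the 8 were called with no filter and 744 (7.88%) and 1 with the block. The cause was not tested. The median log2 fold change of all genes was -0.05 in enterocytes against crypt with TMM, -0.33 with DESeq2 and -0.91 without TMM, where Insig1 lost its call (1.11 in place of 2.08), and it was -0.75 without TMM in mature against early enterocytes. In secretory cells against enterocytes it was -0.23 with TMM, 0.21 with DESeq2 and 0.23 without TMM. Uncalled fold changes changed sign for Hmgcs1 in mature against early enterocytes (0.23, and -0.24 with at most 20% mitochondrial UMIs, -0.035 with one cut and -0.63 without TMM) and in secretory cells against enterocytes (0.01, and -0.0078 without mitochondrial genes and -0.038 with no filter), for Fdft1 in enterocytes against crypt (-0.05, and 0.15 at resolution 1.0 and 0.11 without lipid genes in the score) and in CHEs (-0.34, and 0.086 without tuft-like cells), and for Srebf2 in CHEs (-0.12, and 0.026 merged). With 1 rat alone there is no test, and Hmgcs1 and Fdft1 in mature against early enterocytes then have opposite signs after TMM scaling, but Fdft1 is lower in both rats on plain CPM. With 2 rats and classes of 7 to 21 cells, depth limits the CHE-like, EEC-like, tuft-like, stem-like, cycling crypt-like and secretory progenitor-like classes of one rat or both.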
